A study of Homo sapiens with 4 samples.

Results

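The desmosome components are 10 genes that encode the cadherins, plaque proteins and a membrane protein of the desmosome. They were taken by name: DSG2, DSG3, DSC2, DSC3, DSP, JUP, PKP1, PKP2, PKP3 and PERP. All 10 had a probe set of a single gene symbol, 1 each, out of 18323 genes so named, and all 10 passed the filter on dim genes, as did 15194 genes in all. The study hybridised RNA of HK1 and HK1EBV cells, both human nasopharyngeal carcinoma lines, to 4 single-colour arrays. One array held HK1 with 0.1% DMSO, and one HK1 with 110 µM caffeic acid phenethyl ester (CAPE), each for 24 h. The other two arrays held HK1EBV cells after the same treatments. HK1EBV is read from its name as HK1 carrying Epstein-Barr virus, and the labels say nothing more of the virus, of clones or of passages. Each group was 1 array. Differences inside a line or inside a treatment are therefore unreplicated values, and the small number of arrays limits all precision.

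Desmosomes join the keratin filaments of neighbouring epithelial cells. The desmosomal cadherins, desmogleins and desmocollins, bind each other between the cells. Inside the cell they hold plakoglobin and the plakophilins, which in turn hold desmoplakin, the plakin that binds keratin. In stratified squamous epithelia DSG3 and DSC3 are known from the basal and lower layers, while DSG2 and DSC2 also occur in simple epithelia. CAPE, which occurs in propolis, is known to inhibit the transcription factor NF-κB.

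The values are deposited RMA values, read as log2, and every difference below is in log2 units. Levels of different probe sets were compared only in the filter on dim genes, in picking a probe set per gene and against array medians. The array medians were used for cell type markers and for the genes beside the desmosomal cadherin genes. The CAPE change is CAPE minus DMSO, and the line difference is HK1EBV minus HK1. Each was fitted by limma with line and treatment as terms, so the lines served as replicates for CAPE and the treatments as replicates for the line difference. Each SE is limma's moderated SE, and a gene was called at a Benjamini-Hochberg adjusted p under 0.05 over all genes tested. The array medians lay between 2.23 and 2.27. Nothing in the labels says that arrays came from separate cultures, so p-values measured the spread between these arrays, which may be technical. The carcinoma origin in the labels was set against markers: of 6 epithelial markers with a probe set 0 lay under the array median on all 4 arrays. Of the fibroblast, leukocyte and endothelial markers 5 of 7, 5 of 7 and 5 of 6 did. The summed log2 values ranged over the arrays from 43.75 to 46.08 for the 6 epithelial markers, from 11.33 to 12.14 for the 7 of fibroblasts, from 8.92 to 9.32 for the 7 of leukocytes and from 8.12 to 8.31 for the 6 of endothelial cells. These sums rest on different probe sets, so they describe each list over the arrays and give no ratio between cell types.

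The desmoglein genes DSG3 and DSG2 were lower in HK1EBV than in HK1 under both treatments, and they were the members called for the line difference. DSP, the desmoplakin gene, stood the other way, higher in HK1EBV under both treatments, without passing. After CAPE, DSG3 was higher in both lines, and DSC2, PKP1 and JUP were higher in HK1 while HK1EBV showed little change or the opposite sign. No member (0) was called for CAPE, with 2 of 10, DSG3 and PKP2, at an unadjusted p under 0.05 in limma, against 19.5% of all genes. For the line difference 2 of 10 were called, with 4 at an unadjusted p under 0.05, against 23.1% of all genes. Of all genes tested, 0.00658% were called for CAPE, which is 1 gene, and 2.9% for the line difference. Genes called lower in HK1EBV were 240, or 1.58% of all genes tested.

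**Figure D1:**
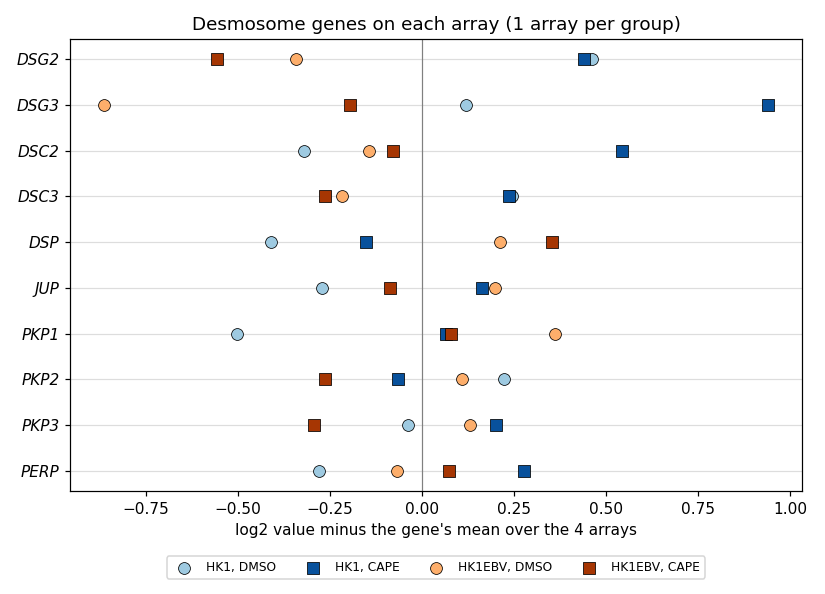
Log2 value of each desmosome gene on each array, minus that gene's mean over the 4 arrays (horizontal axis); circles are DMSO, squares CAPE, blue HK1 and orange HK1EBV, 1 array each. DSG2, DSG3 and DSC3 show both HK1 arrays above both HK1EBV arrays, and DSP shows the reverse order. The share of all genes with either order was not counted.

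The number of calls depended strongly on 57 genes whose residual in this fit was exactly 0. Leaving them out, an alternative chosen with earlier results of these data known, gave 8.21% of genes called for CAPE and 11.6% for the line difference. Among the members DSG3 was then called higher with CAPE, and DSG2, DSG3 and DSC3 lower and DSP higher in HK1EBV. Without the filter on dim genes, or without the other factor as a term, 0 genes were called in either comparison.

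DSG3 encodes desmoglein 3, the autoantigen of pemphigus vulgaris. Its log2 values were 5.75 in HK1 with DMSO, 6.58 in HK1 with CAPE, 4.77 in HK1EBV with DMSO and 5.44 in HK1EBV with CAPE. The highest array was thus HK1 with CAPE and the lowest HK1EBV with DMSO, and HK1EBV with CAPE lay below HK1 with DMSO. The line difference was -0.99 with DMSO and -1.14 with CAPE, on average -1.06 ± 0.11 (moderated SE, n = 2 treatments), or 2.09-fold lower in HK1EBV. It was called (limma adjusted p = 0.0360, range over the alternatives 0.000694 to 0.366), and 0.698% of all genes tested lay as low or lower. With CAPE, DSG3 was higher by 0.82 in HK1 and by 0.67 in HK1EBV, on average by 0.75 ± 0.11 (moderated SE, n = 2 lines), or 1.68-fold. This change was not called (limma adjusted p = 0.0835, range 0.00744 to 0.775), while it was called in 5 of the 10 settings run. Of all genes tested, 1.23% were raised as much or more on average.

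DSG2 encodes desmoglein 2, the desmoglein found in all desmosome-bearing tissues. It stood at 6.98 and 6.96 in HK1 with DMSO and CAPE, and at 6.18 and 5.96 in HK1EBV. Both HK1 values lay above both HK1EBV values, and the treatments were close to each other within each line. The share of all genes with the lines apart in this way was not counted, here and for DSG3, DSC3 and DSP. The line difference was -0.81 with DMSO and -0.996 with CAPE, on average -0.90 ± 0.12 (moderated SE, n = 2), or 1.87-fold lower in HK1EBV, and it was called (limma adjusted p = 0.0449, range 0.0019 to 0.171). Its CAPE change of -0.02 in HK1 and -0.21 in HK1EBV was not called (limma adjusted p = 0.665, range 0.627 to 0.980). DSG3 and DSG2 thus shared the direction of the line difference, and their CAPE changes were 0.75 and -0.12 on average; the difference between these genes in the CAPE change was not tested.

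The desmocollins pair with desmogleins in the junction. DSC3, desmocollin 3, stood at 6.71 and 6.70 in HK1 with DMSO and CAPE and at 6.25 and 6.20 in HK1EBV. Both HK1 arrays lay above both HK1EBV arrays, and the CAPE changes of -0.01 and -0.05 were the smallest among the members. Its line difference of -0.48 ± 0.11 (moderated SE, n = 2) was not called (limma adjusted p = 0.0905, range 0.0355 to 0.239), and it was called in 3 of the 10 settings run. DSC2, desmocollin 2, gave 4.99 in HK1 with DMSO, 5.85 in HK1 with CAPE, 5.16 in HK1EBV with DMSO and 5.23 in HK1EBV with CAPE. Only the HK1 CAPE array stood apart. Its CAPE change was 0.86 in HK1, or 1.82-fold, and 0.06 in HK1EBV. Its line difference was 0.18 with DMSO and -0.62 with CAPE, and neither average was called (limma adjusted p = 0.320 for CAPE and 0.604 for the line, ranges 0.147 to 0.682 and 0.495 to 0.825).

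The 3 members whose line difference was largest in size, DSG3, DSG2 and DSP, are shown by the 250 bases before their RefSeq start (GRCh38.p14), since DSG3 and DSG2 are neighbours that were lower together and DSP stood the other way. Capitals mark CAGGTG or its reverse complement, the E-box letters that repressors of the SNAI and ZEB families are known to bind. The windows are chr18:31447491-31447740, chr18:31497927-31498176 and chr6:7541421-7541670, all on the plus strand.
DSG3: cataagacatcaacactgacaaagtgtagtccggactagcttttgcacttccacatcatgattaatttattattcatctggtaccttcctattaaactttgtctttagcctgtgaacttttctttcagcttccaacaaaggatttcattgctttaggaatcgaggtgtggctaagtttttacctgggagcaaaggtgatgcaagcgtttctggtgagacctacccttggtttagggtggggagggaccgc
DSG2: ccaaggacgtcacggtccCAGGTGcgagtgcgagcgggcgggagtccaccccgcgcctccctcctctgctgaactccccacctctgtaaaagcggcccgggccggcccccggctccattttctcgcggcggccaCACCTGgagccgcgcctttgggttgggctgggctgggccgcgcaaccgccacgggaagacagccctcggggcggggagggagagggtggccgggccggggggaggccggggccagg
DSP: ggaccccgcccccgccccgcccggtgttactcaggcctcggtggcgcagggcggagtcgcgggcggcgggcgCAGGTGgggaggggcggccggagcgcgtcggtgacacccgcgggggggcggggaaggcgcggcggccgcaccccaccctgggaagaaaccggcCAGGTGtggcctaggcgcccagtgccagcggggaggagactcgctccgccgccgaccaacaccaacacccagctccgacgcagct

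The DSG3 window held 42.8% G and C with 4 CpG, at or above 18.6% of all 35116 RefSeq windows of this length. That of DSG2 held 75.2% with 26 CpG, and that of DSP 78.0% with 33 CpG. The windows of these neighbouring desmoglein genes thus differ in base composition, and both genes were lower in HK1EBV. The E-box letters occur at bases -232 to -227 and -116 to -111 in DSG2 and at -178 to -173 and -85 to -80 in DSP, and not in DSG3. They were searched on both strands and occur in 17.5% of all windows. Of the members, 8 had windows in the table, 10 windows in all, and 4 members held the E-box letters: DSC2, DSG2, DSP and JUP. The AP-1 letters TGANTCA occur in 1 member, PERP, at bases -101 to -95, and in 6.57% of all windows. The aryl hydrocarbon receptor core GCGTG occurs in JUP and in 32.2% of windows, and may overlap other motifs. The letters of a GRHL site, AACCGGTT, of the antioxidant response element core, TGACNNNGC, and of a TATA box, TATAAA, occur in 0 member windows, and in 0.117%, 10.9% and 10.7% of all windows. A match describes letters and is not shown to be a bound site.

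JUP encodes plakoglobin, the armadillo protein that links the cadherin tails to desmoplakin and also occurs in adherens junctions. It gave 7.49 and 7.93 in HK1 with DMSO and CAPE, and 7.96 and 7.68 in HK1EBV. HK1 with DMSO was the lowest array and HK1EBV with CAPE the next, below the 7.93 and 7.96 of the other arrays. The CAPE change was 0.44 in HK1 and -0.28 in HK1EBV, so the average of 0.08 ± 0.20 (moderated SE, n = 2) describes neither line. Its mean line difference was 0.11, and neither was called (limma adjusted p = 0.891 for CAPE and 0.795 for the line, ranges 0.846 to 0.969 and 0.724 to 0.876).

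The plakophilins are armadillo proteins of the plaque that gather desmoplakin at the membrane. PKP1, the plakophilin of stratified epithelia, gave 5.30 and 5.86 in HK1 with DMSO and CAPE, and 6.16 and 5.88 in HK1EBV. With DMSO it was higher by 0.86 in HK1EBV, and with CAPE the lines differed by 0.01. Its CAPE changes were 0.57 in HK1 and -0.28 in HK1EBV. PKP3, the plakophilin that can bind all desmogleins and desmocollins, gave 4.80 and 5.04 in HK1 and 4.97 and 4.55 in HK1EBV, and so also changed sign, with 0.24 and -0.42. PKP2, also known from the heart, was alone among the plakophilins in having a negative CAPE change in both lines. It gave 7.57 and 7.28 in HK1 and 7.45 and 7.08 in HK1EBV, changes of -0.29 and -0.37. Its mean of -0.33 ± 0.11 (moderated SE, n = 2) was not called (limma adjusted p = 0.207, range 0.148 to 0.587), with 9.22% of all genes as low or lower. The other plakophilins were not called for CAPE (limma adjusted p = 0.798 for PKP1 and 0.849 for PKP3) or for the line (0.321 for PKP1, 0.474 for PKP2 and 0.674 for PKP3).

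DSP is the plakin that anchors keratin filaments to the plaque. It stood at 5.41 and 5.67 in HK1 with DMSO and CAPE, and at 6.03 and 6.17 in HK1EBV. Both HK1EBV arrays lay above both HK1 arrays, by 0.62 with DMSO and 0.50 with CAPE. The mean line difference was 0.56 ± 0.11 (moderated SE, n = 2), or 1.48-fold. It was not called (limma adjusted p = 0.0737, range 0.0184 to 0.286), and it was called in 5 of the 10 settings run. The CAPE changes of 0.26 and 0.14 were not called (limma adjusted p = 0.417).

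PERP is a tetraspan membrane protein, a target of p53 and p63, that is needed for desmosomes in stratified epithelia. It gave 8.02 and 8.57 in HK1 with DMSO and CAPE, and 8.23 and 8.37 in HK1EBV. HK1 with DMSO was lowest and HK1 with CAPE highest, and both HK1EBV arrays lay between them. The CAPE changes of 0.56 and 0.14 averaged 0.35 ± 0.14 (moderated SE, n = 2) and were not called (limma adjusted p = 0.280, range 0.180 to 0.608). The mean line difference was 0.00 ± 0.14 (limma adjusted p = 0.997).

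Set side by side, the CAPE changes of all 10 members were lower in HK1EBV than in HK1. The member median was 0.35 in HK1 and -0.13 in HK1EBV, beside medians over all genes of 0.02 and -0.00. Both lines agreed in a positive sign for 4 members, DSG3, DSC2, DSP and PERP, and in a negative sign for 3, DSG2, DSC3 and PKP2. The signs were opposite for JUP, PKP1 and PKP3, or 3 of 10, against 35.7% of all genes. The CAPE change of HK1EBV minus that of HK1 was -0.85 for PKP1, -0.80 for DSC2, -0.72 for JUP and -0.66 for PKP3. It was -0.42 for PERP and lay between -0.19 and -0.04 for the other 5, with a member median of -0.30 against -0.02 for all genes. A difference of the size found in PKP1 or more, in either direction, was seen in 1.59% of all genes. Of all genes tested 52.8% had a negative value. These differences rest on 4 single arrays and are what the fit takes as its residual, so they could not be tested. With the arrays shifted to one median 9 of 10 members remained negative, DSC3 being the exception.

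**Figure D2:**
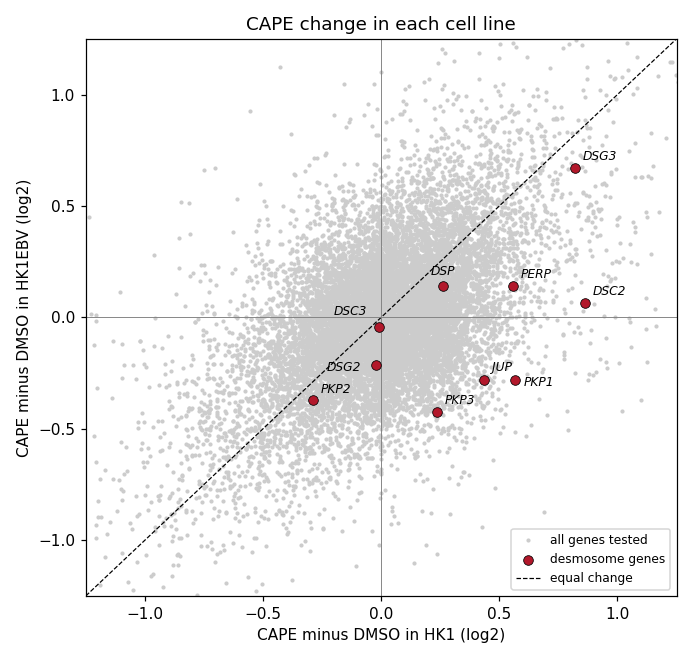
CAPE minus DMSO in HK1 (horizontal axis) against the same in HK1EBV (vertical axis), both log2, for the genes tested in grey and the desmosome genes in red; the dashed line marks equal change, and 137 genes beyond the range of the axes are not drawn. All 10 desmosome genes lie below the dashed line, with DSG3 the one member high on both axes.

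Counted by size, 0 members were at least 2-fold apart with CAPE in either line. Between the lines 1 member, DSG3, was at least 2-fold lower in HK1EBV with CAPE, beside 1.13% of all genes, and 0 with DMSO, beside 0.974% of all genes.

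The 4 desmosomal cadherin genes among the members are neighbours on chromosome 18, and the other members lie on chromosomes 1, 6, 11, 12 and 17. The median line difference was -0.69 for the 4 on chromosome 18 and 0.06 for the 6 elsewhere, which ranged from -0.16 to 0.56. Genes of chromosome 18 as a whole were lower in HK1EBV: the 201 tested besides the members had a median of -0.37, with 87.1% of them negative, 19 called lower and 0 called higher by limma. Its median was the second lowest of the chromosomes, after chromosome 13. Against these 201 genes DSC2 and DSC3 were not extreme, with 66.7% and 35.8% of them as low or lower. DSG3 and DSG2 lay lower than most, with 3.48% and 6.47% as low or lower. The part of this chromosome-wide difference in the values of the desmosomal cadherins was not tested.

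**Figure D3:**
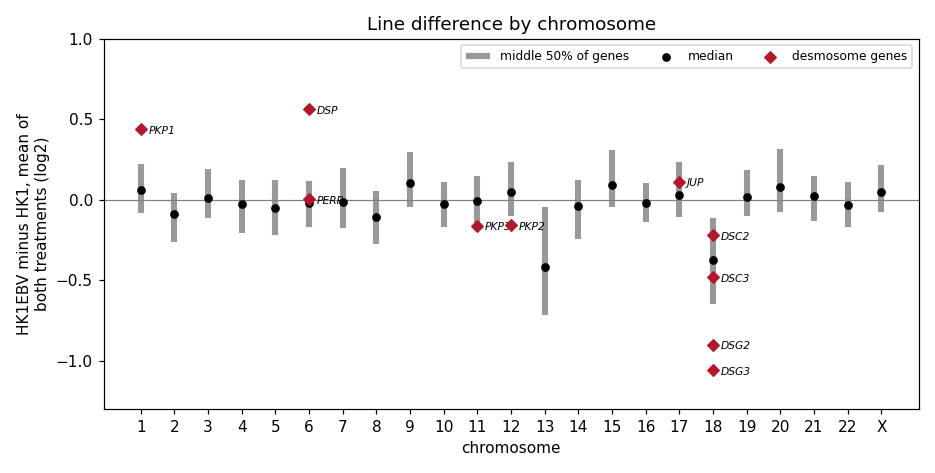
Line difference, HK1EBV minus HK1 as the mean of both treatments in log2 (vertical axis), for the genes tested on each chromosome (horizontal axis); grey bars span the middle 50% of genes, black points are medians and red diamonds desmosome genes. DSG2 and DSG3 lie below the middle 50% of chromosome 18, DSC2 and DSC3 lie within it, and DSP lies above that of chromosome 6.

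The genes next to the cadherin cluster did not all share its difference. Of the 10 genes tested on its sides, 5 on each, 6 were negative and the median was -0.09, from -0.94 to 0.26. RNF138, a ubiquitin ligase gene, stood at 3.64 and 3.32 in HK1 and at 2.69 and 2.40 in HK1EBV, and it was called lower (-0.94, limma adjusted p = 0.0377). CDH2, the N-cadherin gene on the other side, had a line difference of 0.10. Of these 10 genes 5 lay under the median of every array, and the 5 others had a median of -0.07. GAREM1 had CAPE changes of 0.97 in HK1 and 0.16 in HK1EBV, beside 0.86 and 0.06 for DSC2. Over the 10 flanking genes the median of the mean CAPE changes was -0.07. The other cadherin genes of the cluster, DSG1, DSG4 and DSC1, known from differentiated layers and hair, did not pass the filter on dim genes, with values between 0.69 and 1.03 on all arrays.

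**Figure D4:**
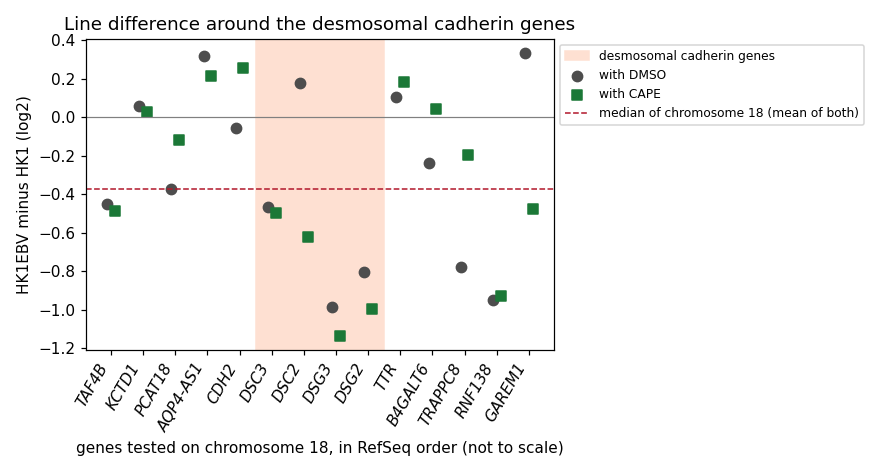
HK1EBV minus HK1 in log2 (vertical axis), with DMSO (circles) and with CAPE (squares), for the desmosomal cadherin genes and 5 genes tested on either side in RefSeq order (horizontal axis, not to scale); the dashed line is the median of chromosome 18, -0.37. In the shaded cluster DSG3 and DSG2 lie between -0.81 and -1.14 and DSC2 changes sign between the treatments, while the flanking genes scatter from -0.95 for RNF138 to 0.33 for GAREM1, both with DMSO.

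Other junction genes were described through lists of 82 genes tested, in 10 groups. By limma 0 of the 82 were called for CAPE, with 22 at an unadjusted p under 0.05, beside 19.5% of all genes. For the line difference 5 were called, KRT15 and KRT16 higher and LAMB3, SNAI2 and VIM lower in HK1EBV, beside 2.9% of all genes. An unadjusted limma p under 0.05 for the line was found in 31, beside 23.1% of all genes. Without the genes of zero residual 7 were called higher and 3 lower with CAPE, or 12.2%, beside 8.21% of all genes. Likewise 9 were called higher and 10 lower in HK1EBV, or 23.2%, beside 11.6%. The median CAPE change of HK1EBV minus that of HK1 was -0.18 over the 82 genes, with 65.9% negative. By list it was -0.33 for the 12 keratins, further below 0 than the -0.30 of the desmosome members. It was 0.14 for the tight junction list and 0.17 for the 5 desmosome genes tested outside the members. The 6 epithelial markers, listed apart from these 10 groups, had -0.46. They share KRT5, KRT8, KRT14 and KRT18 with the keratins, and EPCAM was the only marker above 0, at 0.72. A lower CAPE change in HK1EBV was thus not particular to the desmosome members, and the desmosome genes outside them had a positive median.

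The other desmosome proteins had 5 of 8 genes tested, with median line differences of -0.22 with DMSO and -0.34 with CAPE and 0 called by limma, 2 at an unadjusted p under 0.05. PPL, the plakin periplakin, gave 5.13 and 4.99 in HK1 and 4.60 and 4.22 in HK1EBV, a difference of -0.65 ± 0.12 (moderated SE, n = 2, limma adjusted p = 0.0672), opposite in sign to DSP. PKP4, a relative of the plakophilins, had a line difference of -0.45, and EVPL, the plakin envoplakin, one of -0.14. The keratins to which desmoplakin binds had a median line difference of 0.17 over 12 genes, with 2 called higher and 0 lower. KRT16, a keratin of activated keratinocytes, was higher in HK1EBV by 0.98 ± 0.11 (limma adjusted p = 0.0364). KRT15, a basal keratin, was higher by 1.17 ± 0.16 (limma adjusted p = 0.0459). KRT13, a keratin of mucosal epithelium, had the largest mean line difference of the list, with 2.27 under DMSO and 0.80 under CAPE, where KRT16 (1.03) and KRT15 (0.91) were larger, and was not called (limma adjusted p = 0.0910). KRT5, a basal keratin, differed by 0.63 and was not called (limma adjusted p = 0.0744). Line differences of the sign of DSP were found in 10 of the 12 keratins with DMSO and 8 with CAPE, and KRT1, KRT18 and KRT19 had negative means of -0.20, -0.14 and -0.13.

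Hemidesmosomes hold the same keratins to the basement membrane. Of their 6 genes tested 1 was called lower in HK1EBV and 0 higher, with a median of -0.47. LAMB3, a laminin chain of the basement membrane, gave 8.45 and 9.36 in HK1 and 7.57 and 8.28 in HK1EBV. Its line difference of -0.98 ± 0.12 (limma adjusted p = 0.0406) and its CAPE changes of 0.91 and 0.71 stand beside -1.06 and 0.82 and 0.67 for DSG3. PLEC, the plakin plectin, differed by -0.87 between the lines (limma adjusted p = 0.0634), and ITGA6, the integrin α6 gene, by -0.68 (0.0577). The adherens junction list had a median of 0.05 over 11 genes and the tight junction list of 0.20 over 9, each with 0 called and 4 at an unadjusted p under 0.05. NECTIN4, an adhesion receptor, was 0.65 higher in HK1EBV (limma adjusted p = 0.0571), and CGN, the tight junction protein cingulin, 0.61 higher (0.0651). With CAPE the claudin gene CLDN12 was higher by 0.64 in HK1 and by 0.99 in HK1EBV, without being called (limma adjusted p = 0.0849). The gap junction list had a median line difference of -0.18 over 5 genes, 0 called and 2 at an unadjusted p under 0.05. JUP's relative β-catenin acts in Wnt signalling, and the list of 8 Wnt targets had a median of -0.16 with 0 called and 2 at an unadjusted p under 0.05. The list's MYC gave 7.48 and 6.95 in HK1 and 6.74 and 6.32 in HK1EBV.

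**Figure D5:**
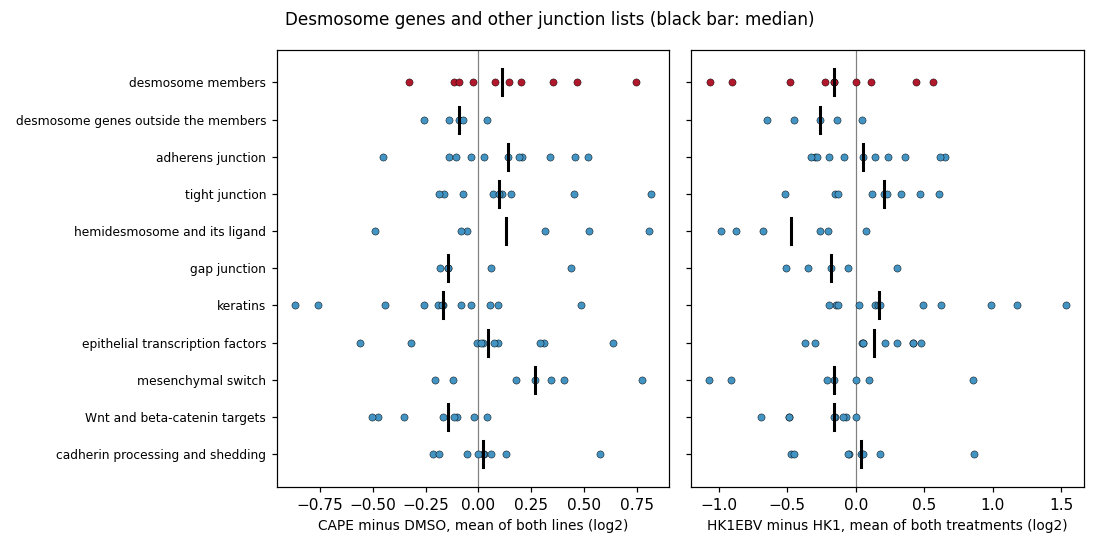
Each gene tested as a point, desmosome members in red and the other lists in blue, with black bars at list medians; the left panel gives the CAPE change and the right panel the line difference, both log2 means over the 2 pairs of arrays. The members span -0.33 to 0.75 for CAPE and -1.06 to 0.56 for the lines, the hemidesmosome list has its line median at -0.47 and the keratins at 0.17.

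Among themselves the members fell into unlike profiles over the 4 arrays. By Euclidean distance of the profiles centred on each gene's mean, DSC3 was nearest to DSG2 (0.43) and DSC2 nearest to PERP (0.32). JUP and PKP3 were nearest to each other, at 0.32, and PKP1 was nearest to JUP, at 0.34. DSG3 was farthest from any other member, at 0.88 from DSG2. Its values also spanned the widest range over the arrays, 1.81, against 0.47 for JUP. The mean profile of the members was -0.08 in HK1 with DMSO, 0.26 in HK1 with CAPE, -0.06 in HK1EBV with DMSO and -0.12 in HK1EBV with CAPE. The nearest genes outside the members were ATP6V1B1, TRIM26 and ADAMTS2, at distances of 0.02, 0.02 and 0.03, over 4 arrays.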

How the data were processed

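Total RNA of the 4 samples was labelled with biotin and hybridised to Affymetrix arrays, per the labels' protocols. The authors deposited values made by RMA, per the submitters' processing notes, which are read here as log2. The RMA version, the log base and any shift of the values towards 0 are not stated in these notes. The array minima lay between -0.19 and -0.067. Log2 was taken from RMA's usual output as an assumption, and every fold given rests on it. Of 25800 probe sets 18612 had 1 gene symbol, 954 several and 6234 none, and 18583 matched RefSeq (GRCh38.p14) by Entrez number. The probe set with the highest mean stood for a gene. Genes were tested when their mean reached the 25th percentile of probe sets, 0.997. limma 3.58.1 in R 4.3.3 (lmFit, eBayes) was fitted to all genes with terms for line and treatment, leaving 1 residual degree of freedom, two-sided. Data were simulated for CAPE, with spreads drawn from a variance prior estimated without the genes of zero residual. There it called 94 of 100 genes changed by 1 log2 unit and 100 of 100 changed by 2, with 8 false calls in all. The simulated data held no genes of zero residual, so they do not check how such genes affect the calls. They give no rate of detection for the main fit to the real arrays.

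The named genes were all members, up to 3 of each list by CAPE change and 2 by line difference, the genes beside the cadherin cluster and those of nearest profile; DSG1, DSG4, DSC1, KRT1, KRT5, KRT18, KRT19, ITGA6 and genes of small counts were added after their values were seen. Members and lists were chosen with earlier results of these data known. Alternatives changed the filter, scaling, probe set rule, variance prior, block and zero-residual genes. Promoter windows came from RefSeq, without the bases after the start. Protein sequences were not used here.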

Additional observations from a re-analysis of the deposited data

Results flagged for a closer look

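For 5 members the CAPE change or the line difference had opposite signs in the groups compared, each on single arrays, and the difference was not tested. JUP, PKP1 and PKP3 had a positive CAPE change in HK1 and a negative one in HK1EBV, and the change of HK1EBV minus that of HK1 was -0.72, -0.85 and -0.66. DSC2 and PERP were higher in HK1EBV than in HK1 with DMSO, by 0.18 and 0.21, and lower with CAPE, where the line differences were -0.62 and -0.21. The same measure was -0.80 for DSC2 and -0.42 for PERP. JUP and PKP3 also changed the sign of the line difference. Opposite CAPE signs were thus found in 3 of 10 members, beside 35.7% of all genes tested. Opposite line signs were found in 4 of 10, beside 32.7%. The share of all genes with either was not counted.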

How the results depend on the processing

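Every member kept the sign of its mean CAPE change and mean line difference in the settings run, except the line difference of PERP, which was near 0 and became -0.0029 with quantile normalization. The counts moved widely, most when only the 57 genes of zero residual were left out. Why the other settings moved them was not tested. For CAPE, 1 gene was called, against 0 with no filter on dim genes or no block, 7 with a trend prior, 379 with a robust prior, 755 with quantile normalization, 894 with the filter at the 50th percentile, 1006 with medians shifted and 1243 with zero-residual genes left out. For the line difference 440 were called, against 0 with no filter or no block, 959 with a robust prior, 1296 with the filter at the 50th percentile, 1324 with quantile normalization, 1526 with medians shifted and 1756 with zero-residual genes left out. Members called for CAPE went from 0 to 1, DSG3, with the filter at the 50th percentile, medians shifted, quantile normalization, a robust prior and zero-residual genes left out. Members called for the line went from 2 to 3 with medians shifted and with a robust prior. They went to 4 with the filter at the 50th percentile, quantile normalization and zero-residual genes left out, and to 0 with no filter or no block. With quantile normalization 1 member was at least 2-fold apart between the lines with DMSO and 2 with CAPE. The median line difference of chromosome 18 was -0.24 with no filter and -0.48 with the filter at the 50th percentile. Without any 1 array the fit has no residual degree of freedom, so leave-one-out fits were not run.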

Other observations

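Genes that process or regulate desmosomal cadherins were also listed. FURIN, a protease that removes the propeptide of cadherins, stood at 4.06 and 4.42 in HK1 with DMSO and CAPE, and at 5.15 and 5.06 in HK1EBV. Its line difference of 0.86 ± 0.15 (moderated SE of limma, n = 2) was not called (limma adjusted p = 0.0601). The sheddase gene ADAM17 stood at 6.40 and 6.85 in HK1 and at 5.83 and 6.52 in HK1EBV. Its CAPE changes of 0.45 and 0.69 were not called (limma adjusted p = 0.110), and its line difference of -0.45 was opposite in sign to that of FURIN. In this list of 9 genes 0 were called in either comparison by limma, with 3 at an unadjusted p under 0.05 for the line.

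SNAI2, a repressor that binds E-box letters, was lower in HK1EBV, at 8.60 and 8.78 against 9.51 and 9.68 in HK1 with DMSO and CAPE. The difference of -0.91 ± 0.11 (moderated SE, n = 2) was called (limma adjusted p = 0.0401). The factor gene GRHL2, of the grainyhead family, had CAPE changes of -0.47 in HK1 and -0.65 in HK1EBV (limma adjusted p = 0.109) and a line difference of 0.05. OVOL1, an epithelial zinc finger factor, was higher with CAPE by 0.42 and 0.86 (limma adjusted p = 0.122). VIM, the gene of the intermediate filament vimentin, was lower in HK1EBV, with a difference of -1.07 ± 0.13 (limma adjusted p = 0.0421), and FN1, the fibronectin gene, differed by 0.85 without being called (0.0522). The list of 7 mesenchymal genes had a median line difference of -0.16, with 0 called higher and 2 lower, and the 10 epithelial factors one of 0.13, with 0 called by limma and 4 at an unadjusted p under 0.05. For CAPE 0 genes of either list were called by limma, and each had 3 at an unadjusted p under 0.05.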
